A study of Mus musculus with 47 samples.

Results

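The comparison described here sets the effect of ethanol in early withdrawal against its effect after a week without ethanol, in the medial prefrontal cortex (PFC) of mice. The quantity is a difference of differences: the ethanol effect at 8h (CIE 8h minus Ctrl 8h) minus the ethanol effect at 7d (CIE 7d minus Ctrl 7d). The groups were taken from the sample titles, and 23 of the 47 arrays of the series fall into them. Chronic intermittent ethanol (CIE) mice were kept in ethanol vapor (10 to 13 mg/l) for 16 hours each day on 4 days and then left without ethanol for 7 days, and this cycle was run 4 times. Control (Ctrl) mice breathed air and were handled alike. Before each exposure CIE mice were injected with ethanol (1.6 g/kg) and pyrazole (1 mmol/kg), an inhibitor of alcohol dehydrogenase, whereas Ctrl mice were given saline and pyrazole, so that every mouse had pyrazole. All were adult male C57BL/6J mice. The groups hold 5 mice at CIE 8h, 6 at Ctrl 8h, 6 at CIE 7d and 6 at Ctrl 7d. Tissue was not pooled between mice, and each harvest time had its own Ctrl mice, so the 8h and 7d effects share no animal.

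The medial PFC is a cortical region that takes part in executive control and in the restraint of drug seeking. When ethanol is removed after repeated exposure, the brain passes through a short phase of heightened excitability and of stress hormone release, followed by a longer phase of abstinence. Glucocorticoid receptors, inflammatory signals and the unfolded protein response of the endoplasmic reticulum all act partly through transcription, so that arrays taken early and late can be compared gene by gene. Vapor exposure is a forced exposure, and tissue from a dissected region holds neurons, glia and vessels together. In such tissue fewer cells of a type and less RNA per cell cannot be told apart.

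Values are log2 intensities of 45037 probesets, with array medians of 6.39 to 6.42. Precision is limited by how many arrays there are. A probeset is a group of short probes for a transcript, and a gene can have several that differ in what they detect. Effects and differences are given on the log2 scale, where 1 stands for a 2-fold level, and a call is an adjusted p (Benjamini-Hochberg, limma) of at most 0.01. Some properties of the libraries touch all results. The titles put 3 Ctrl and 2 CIE mice of the 8h groups in repeat group 2 and all other mice in repeat group 1, so a shift between repeat groups that the authors' adjustment left or made lies in the 8h effects alone. The array of CIE 8h mouse 15 stands apart from the rest, with a mean correlation to the other arrays of 0.967 against a median of 0.992 over all arrays. CIE 8h mouse 23, the other CIE mouse of repeat group 2, had 0.988, a value that arrays of other groups also reached or fell under. Results are therefore given also from repeat group 1 arrays alone and without these 2 mice. Cortical neuron markers were high, as in cortical tissue (mean level 11.6 in CIE 8h, 11.6 in Ctrl 8h, 11.6 in CIE 7d and 11.6 in Ctrl 7d mice).

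The ethanol effect differed between 8h and 7d for 810 probesets. These are 1.8% of the 45037 tested, and they cover 620 named genes. The difference was above 0 for 497 and below 0 for 313, with a median absolute difference of 0.63 and 53 above 1. At an unadjusted p ≤ 0.05, 11217 probesets passed. The 8h effect alone passed for 1527 probesets (3.39%), 1028 higher and 499 lower in CIE mice, and the 7d effect for 427 (0.948%), 217 higher and 210 lower. From repeat group 1 alone 1203 probesets passed the difference, 428 of them shared with the 810, and all 810 had the same sign. Of the 23 arrays of the 4 groups 18 are in that fit too, which largely fixes the sign. The share above 0 was 61.4% with all arrays, 49.3% from repeat group 1 alone, 54.8% of 527 without CIE 8h mice 15 and 23 and 51.6% of 4933 with array weights, so that this share moved with the arrays used. Of the 810, 519 (64.1%) lay at or under the median probeset level of 6.41, where signal over background is weak.

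The largest difference belonged to Plin4, a perilipin that coats lipid droplets and a known target of glucocorticoids. Its levels in the CIE 8h mice were 8.84, 9.63, 8.49, 8.62 and 8.34, against 6.68, 6.68, 7.09, 6.81, 5.66 and 6.65 in the Ctrl 8h mice. At 7d the CIE mice had 5.91, 6.31, 5.25, 5.16, 5.12 and 5.51, against 5.92, 5.97, 6.34, 6.22, 6.54 and 6.52 in Ctrl mice. Every CIE mouse lay above every Ctrl mouse at 8h, and at 7d the groups overlapped with 5 of 6 CIE mice below the Ctrl mean. The 8h effect was 2.19 (adjusted p = 6.68e-05), a 4.57-fold higher level, and the 7d effect was -0.71 (adjusted p = 0.201). The difference was 2.90, with a 95% interval of 2.01 to 3.79 (adjusted p = 2.31e-04). It was 2.88 from repeat group 1 alone and 3.10 without CIE 8h mice 15 and 23, and the call held in all 23 runs that left out 1 array.

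Promoter sequence is shown for Plin4, which has the largest difference, and for Dnajb9 and Ddx58, described below, which carry the calls of the unfolded protein response and interferon lists. Each sequence runs from 250 bases before to 50 bases after the transcription start (RefSeq, build GRCm38.p6), 5′ to 3′ on the strand of the gene. Short motifs were searched on both strands. These are AGAACA, a half-site of the glucocorticoid receptor, in Plin4, CCACG, the core of the ER stress response element, with the overlapping E-box CACGTG in Dnajb9, and a pair of TTTC separated by 2 bases of any kind, the core of the interferon-stimulated response element, in Ddx58. Capitals mark the matches.
Plin4, chr17:56109733-56110032, minus strand: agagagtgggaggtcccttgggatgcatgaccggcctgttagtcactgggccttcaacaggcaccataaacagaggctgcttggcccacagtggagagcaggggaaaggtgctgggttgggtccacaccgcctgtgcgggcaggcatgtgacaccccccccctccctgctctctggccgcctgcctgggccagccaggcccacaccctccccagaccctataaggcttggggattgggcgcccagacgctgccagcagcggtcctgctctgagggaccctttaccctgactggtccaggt
Dnajb9, chr12:44210019-44210318, minus strand: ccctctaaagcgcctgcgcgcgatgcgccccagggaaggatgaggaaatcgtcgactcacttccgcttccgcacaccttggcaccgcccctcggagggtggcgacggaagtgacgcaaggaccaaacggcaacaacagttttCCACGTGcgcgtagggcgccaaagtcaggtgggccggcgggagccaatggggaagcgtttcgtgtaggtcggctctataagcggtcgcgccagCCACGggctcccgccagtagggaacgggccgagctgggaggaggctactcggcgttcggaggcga
Ddx58, chr4:40239776-40240075, minus strand: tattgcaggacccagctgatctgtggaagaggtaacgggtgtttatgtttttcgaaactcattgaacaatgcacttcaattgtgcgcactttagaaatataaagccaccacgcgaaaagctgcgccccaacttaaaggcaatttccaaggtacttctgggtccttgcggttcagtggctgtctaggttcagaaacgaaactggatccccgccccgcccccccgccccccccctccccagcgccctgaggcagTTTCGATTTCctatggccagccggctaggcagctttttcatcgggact

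The letters AGAACA do not occur in the Plin4 window and occur in 19.0% of all 32851 promoters of the same length and in 7 of 38 promoters (18.4%) of the glucocorticoid-responsive genes. CCACG occurs at 2 places in the Dnajb9 window, 108 and 15 bases before the start, and the first overlaps CACGTG. Of all promoters 32.8% hold CCACG and 7.15% hold CACGTG. The TTTC pair occurs in 3.44% of all promoters and in 19 of 38 promoters of the interferon-stimulated genes. CCACG occurs in 19 of 26 promoters of the ER stress genes (73.1%). The share was 47.4% for glucocorticoid-responsive genes, 51.9% for clock genes and 28.9% for interferon-stimulated genes. Among genes with a called difference above 0, 295 of 380 had a promoter in the table, and 30 of their 364 promoters (8.24%) held AGAACA, 159 (43.7%) CCACG, 34 (9.34%) CACGTG and 12 (3.30%) the TTTC pair. Among those with a called difference below 0, 41 of 256 promoters (16.0%) held AGAACA, 108 (42.2%) CCACG, 28 (10.9%) CACGTG and 3 (1.17%) the TTTC pair. These are letter matches and not binding sites.

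The 810 probesets fall into classes by which of their 2 effects passed on its own. In 366 the 8h effect passed and the 7d effect did not, 253 with a difference above 0 and 113 below 0. Their median absolute effect was 0.47 at 8h and 0.17 at 7d, and in 357 the 7d effect had the opposite sign. In 124 the 7d effect passed and the 8h effect did not (67 above 0 and 57 below, median absolute effect 0.18 at 8h and 0.48 at 7d). In 5 both passed with opposite signs, in 0 both passed with the same sign, and in 315 neither passed. All of these 315 had opposite signs, which a difference that passes between 2 effects that do not largely requires. From repeat group 1 alone the classes held 547, 155, 16, 0 and 485 probesets in the same order, and without CIE 8h mice 15 and 23 they held 148, 124, 2, 0 and 253.

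**Figure D1:**
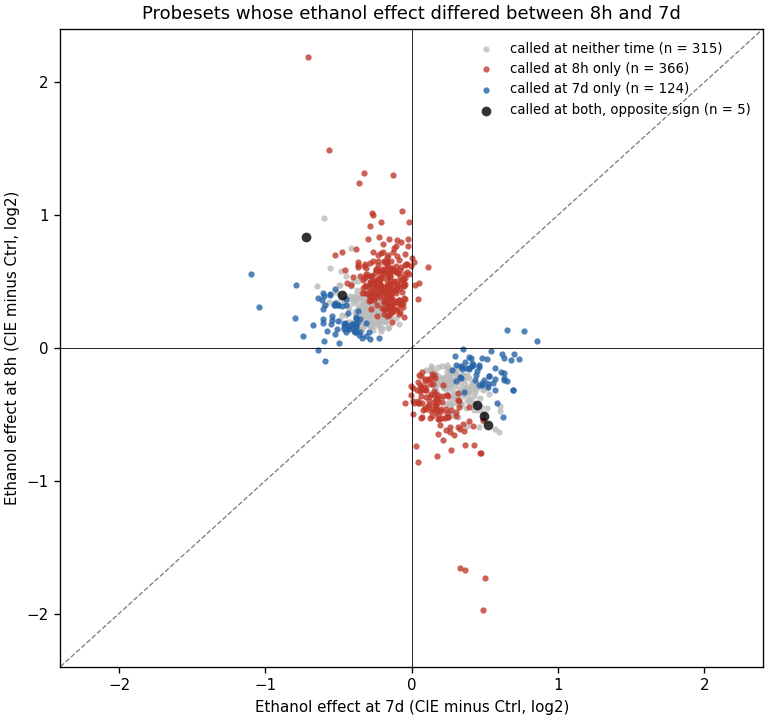
Ethanol effect at 8h (vertical axis, CIE minus Ctrl, log2) against the effect at 7d (horizontal axis, same unit) for the 810 probesets whose difference passed; each point is a probeset, coloured by which effect passed on its own, and the dashed line marks equal effects. Most points lie to the upper left and lower right of the origin, as the choice of probesets by their difference largely fixes, and the 5 black points passed at both times with opposite signs.

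The probesets called at 8h had, as a set, no common direction at 7d. The 1527 probesets called at 8h were chosen on a contrast that holds no 7d mouse, although the 7d mice enter the variance of the fit, and without any 1 of the 7d mice the count lay between 1413 and 1539. Their median effect, counted in the direction of 8h, was 0.45 at 8h and 0.00 at 7d, with quartiles of -0.09 and 0.11 at 7d. The 7d effect had the same sign as at 8h in 769 of them (50.4%) and the opposite sign in 758, against 46.3% with the same sign over all probesets. Of 1187 calls at 8h from repeat group 1 alone, 543 (45.7%) had the same sign. The 1028 higher at 8h had a median effect of 0.47 at 8h and 0.00 at 7d, and the 499 lower had -0.41 at 8h and 0.00 at 7d. In 8 of the 1527 the absolute effect was larger at 7d than at 8h. The difference itself passed in 371 of the 1527 (24.3%), 255 of those higher and 116 of those lower at 8h. For the other calls at 8h the data do not settle whether the effect had gone, since a difference had a median standard error of 0.14. Choosing probesets for a large 8h effect also raises that effect and with it the difference.

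Calls at 7d were likewise mixed in sign at 8h. The 427 probesets called at 7d had a median effect in their own direction of 0.44 at 7d and 0.00 at 8h, with the opposite sign at 8h in 213. The difference passed in 129 of these (30.2%), 60 of those higher and 69 of those lower at 7d. Over all 45037 probesets the effects at 8h and 7d had a Pearson correlation of -0.11 (Spearman -0.09), and -0.07 from repeat group 1 alone. Probesets are not independent replicates, and the 2 effects share the batch adjustment and no mice.

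How far CIE and Ctrl mice each differed between the times depended on the arrays used. With all arrays the contrast of CIE 8h with CIE 7d mice passed for 2737 probesets (6.08%), and that of Ctrl 8h with Ctrl 7d mice for 5 (0.0111%, by limma, with 6825 at an unadjusted p ≤ 0.05). Among the 810, CIE 8h and CIE 7d differed in 535 and Ctrl 8h and Ctrl 7d in 2. The median absolute change between the times was 0.41 in CIE and 0.21 in Ctrl mice, the CIE change was the larger in 659, and the 2 changes had opposite signs in 772. Repeat group 2 is found at 8h alone, so harvest time and repeat group are partly mixed in both of these contrasts. In the fit of repeat group 1 alone, where they are not mixed although the authors' adjustment is still in the values, CIE 8h and CIE 7d mice differed in 1206 probesets and Ctrl 8h and Ctrl 7d mice in 1157. With repeat group as a term the counts were 1361 in CIE and 958 in Ctrl mice, and without CIE 8h mice 15 and 23 they were 1217 and 78. The large gap between CIE and Ctrl counts with all arrays was not seen from repeat group 1 alone.

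Genes with a large effect at 8h that was not called at 7d follow Plin4. Spry4, a feedback inhibitor of receptor tyrosine kinase signalling, had 7.17, 6.67, 7.18, 8.01 and 7.14 in CIE 8h mice, against 6.34, 6.30, 6.50, 6.13, 5.79 and 6.36 in Ctrl 8h mice. At 7d it had 6.45, 5.69, 5.62, 5.74, 5.84 and 5.58 in CIE mice, against 6.28, 5.74, 6.12, 6.30, 5.97 and 6.12 in Ctrl mice. The groups did not overlap at 8h and did at 7d. Its 8h effect was 1.00, its 7d effect -0.27 and the difference 1.27 (adjusted p = 0.00262), but 0.89 from repeat group 1 alone (adjusted p = 0.0382). Tmod2, which caps actin filaments in neurons, had a difference of 1.28 (8h effect 1.02, 7d effect -0.27, adjusted p = 0.00297) and was called on 2 probesets, while its brightest probeset gave 0.38. Etnppl, an astrocyte enzyme that breaks down phosphoethanolamine, had a difference of 1.64 (8h effect 1.31, 7d effect -0.33, adjusted p = 0.00188). Gm34996 followed with 1.60, and Eln, the elastin gene, with 1.20, while the brighter probeset of Eln gave 0.01 (adjusted p = 0.966).

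Genes lower at 8h and not called at 7d were ranked on probesets with 1 gene symbol and without the suffixes _x_at and _s_at. Larger falls occurred outside this ranking. A probeset without a single symbol had a difference of -2.46 (8h effect -1.98, 7d effect 0.49). Another had -2.23 (8h effect -1.73, 7d effect 0.50). Within the ranking Rasal3, a Ras GTPase activating protein best known from blood cells, came first. It had 5.31, 5.07, 5.41, 5.27 and 5.58 in CIE 8h mice, against 6.51, 6.48, 6.37, 5.87, 5.58 and 5.93 in Ctrl 8h mice. At 7d it had 5.77, 5.99, 6.07, 6.38, 6.22 and 6.02 in CIE mice, against 5.56, 5.64, 5.60, 5.55, 5.61 and 5.67 in Ctrl mice. The groups of each time did not overlap, although the highest CIE 8h mouse and the lowest Ctrl 8h mouse lay within rounding of each other, with CIE lower at 8h and higher at 7d. The effects were -0.80 at 8h (adjusted p = 9.27e-04) and 0.47 at 7d (adjusted p = 0.0531), and the difference was -1.26 (adjusted p = 3.98e-04), or -1.66 from repeat group 1 alone. Within repeat groups 1 and 2 its 8h effect was -1.19 and -0.37. Lmnb1, which encodes the nuclear lamina protein lamin B1, had a difference of -1.26 (8h effect -0.79, 7d effect 0.47), Gm10638 of -1.16 and Pigk, a subunit of the enzyme that attaches GPI anchors, of -1.10. The brightest probesets of Lmnb1 (-0.38) and Pigk (-0.07) did not pass.

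The 5 probesets that passed at both times with opposite signs belong to Gng2, Arhgef17, Platr30, Atp5a1 and Nfic. Their differences passed with all arrays, from repeat group 1 alone and without CIE 8h mice 15 and 23, but the call at 8h depended on the arrays. Atp5a1, Nfic and Arhgef17 passed at both times from repeat group 1 alone, and Gng2 (8h effect -0.35, adjusted p = 0.0427) and Platr30 (0.42, adjusted p = 0.0416) passed at 7d alone. Without CIE 8h mice 15 and 23 none of the 5 passed at 8h, with adjusted p of 0.0127 for Atp5a1, 0.0152 for Nfic, 0.0211 for Arhgef17, 0.0355 for Gng2 and 0.116 for Platr30, and the signs stayed as they were. Gng2 encodes a gamma subunit of heterotrimeric G proteins, which relay signals of transmitter receptors. Its levels were 9.96, 10.23, 10.04, 9.76 and 9.83 in CIE 8h mice, against 10.45, 10.49, 10.33, 10.41, 10.28 and 10.42 in Ctrl 8h mice. At 7d they were 10.46, 10.61, 10.58, 10.58, 10.54 and 10.69 in CIE mice, against 9.91, 10.04, 10.15, 10.17, 10.30 and 10.22 in Ctrl mice. Neither pair of groups overlapped, and CIE was the lower at 8h and the higher at 7d. The effects were -0.43 (adjusted p = 0.00106) and 0.45 (adjusted p = 7.77e-04) and the difference -0.88 (95% interval -1.11 to -0.65, adjusted p = 5.57e-05), which was -0.79 from repeat group 1 alone. Another probeset of Gng2, the brightest, gave -0.10 (adjusted p = 0.621), and it did not pass.

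Platr30, a long noncoding RNA with 1 probeset, showed the opposite order. It had 4.50, 4.52, 4.72, 4.80 and 4.82 in CIE 8h mice, against 4.10, 4.19, 4.19, 4.39, 4.38 and 4.41 in Ctrl 8h mice, and 4.41, 4.54, 4.17, 4.25, 4.16 and 4.11 in CIE 7d mice, against 4.74, 4.78, 4.56, 4.91, 4.67 and 4.85 in Ctrl 7d mice. The groups of each time did not overlap, although all levels lay far under the median probeset. Its effects were 0.40 (adjusted p = 0.00838) and -0.48 (adjusted p = 0.00253), and the difference was 0.87. Arhgef17 had effects of -0.52 at 8h and 0.49 at 7d (difference -1.01), and its brightest probeset gave -0.23. Atp5a1 encodes a catalytic core subunit of mitochondrial ATP synthase. A dim probeset of it had effects of 0.83 and -0.72 and a difference of 1.55 (adjusted p = 2.15e-04), whereas the brightest gave -0.27 (adjusted p = 0.0840), opposite in sign. Nfic, a transcription factor of the nuclear factor I family, was read from a probeset that can detect more than 1 transcript.

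**Figure D2:**
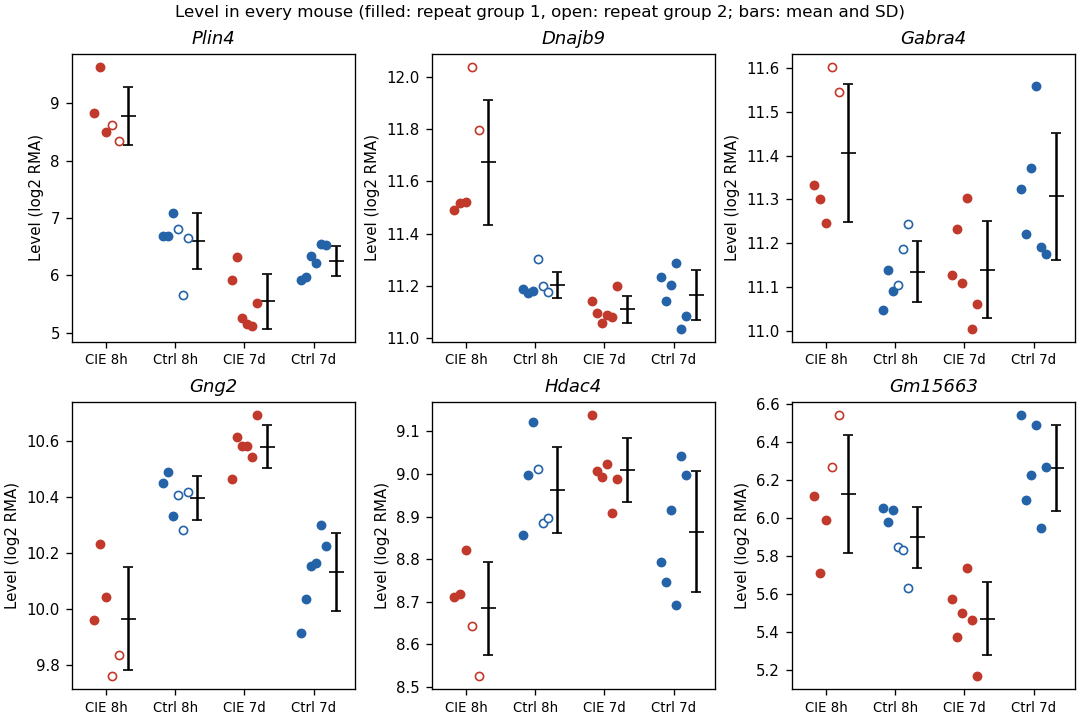
Level (vertical axes, log2 RMA intensity) of 6 genes in each mouse by group (horizontal axes: CIE 8h, Ctrl 8h, CIE 7d, Ctrl 7d); points are mice, CIE in red and Ctrl in blue, filled for repeat group 1 and open for repeat group 2, with bars for the group mean and SD. Plin4 and Dnajb9 stand apart from Ctrl at 8h alone, Gng2 is lower in CIE at 8h and higher at 7d, and Gm15663 is lower in CIE at 7d without overlap.

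Among probesets that passed at 7d and not at 8h, Gm15663 was the one of smallest p of those named. It had 6.11, 5.71, 5.99, 6.27 and 6.55 in CIE 8h mice, against 6.05, 5.98, 6.04, 5.85, 5.83 and 5.63 in Ctrl 8h mice, and 5.57, 5.37, 5.50, 5.74, 5.46 and 5.17 in CIE 7d mice, against 6.54, 6.10, 6.23, 6.49, 5.95 and 6.27 in Ctrl 7d mice. The groups overlapped at 8h and not at 7d. The effects were 0.23 at 8h and -0.79 at 7d (adjusted p = 5.07e-05) and the difference 1.02, or 0.71 from repeat group 1 alone (adjusted p = 0.0112). Kdm2a, a histone demethylase, had a 7d effect of 0.59 and a difference of -1.003 on a dim probeset, and its brightest gave -0.03. Anapc11, a subunit of the anaphase promoting complex, had 0.63 and -1.14, and 9630013A20Rik had -1.04 and 1.35. The brightest probeset of Anapc11 gave -0.44 (adjusted p = 0.0880). Smyd5, a SET domain methyltransferase, had -1.10 and 1.66, while its brightest probeset gave -0.19, opposite in sign.

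Where neither effect passed, the difference rested on 2 moderate effects of opposite sign. Tbc1d24, which acts in synaptic vesicle traffic, had effects of -0.48 at 8h and 0.60 at 7d (difference -1.08, adjusted p = 0.00374), and Stam2, which sorts endosomal cargo, -0.55 and 0.49 (-1.04). Cdh7, a cadherin of cell adhesion, had 0.98 and -0.60 (1.58), and Atp10a, a phospholipid flippase, 0.75 and -0.41 (1.17). Psme3, an activator of the proteasome, had -0.63 and 0.59 (-1.23), Rps6kb2, an S6 kinase, -0.61 and 0.57 (-1.18), and Mpst, a sulfurtransferase, -0.44 and 0.60 (-1.04). Atp10a, Rps6kb2 and Mpst were read from the brightest probeset of the gene. The brightest probesets of the others did not pass. They gave -0.34 for Tbc1d24 (adjusted p = 0.0786), -0.05 for Stam2 (0.868), 0.26 for Cdh7 (0.486) and -0.09 for Psme3 (0.646). The calls of Cdh7, Rps6kb2 and Mpst each held in 5 of 23 runs that left out 1 array and that of Atp10a in 7, so these 4 lie close to the threshold. Within repeat group 2 the 8h effect of Psme3 was 0.11, against -1.26 in repeat group 1.

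**Figure D3:**
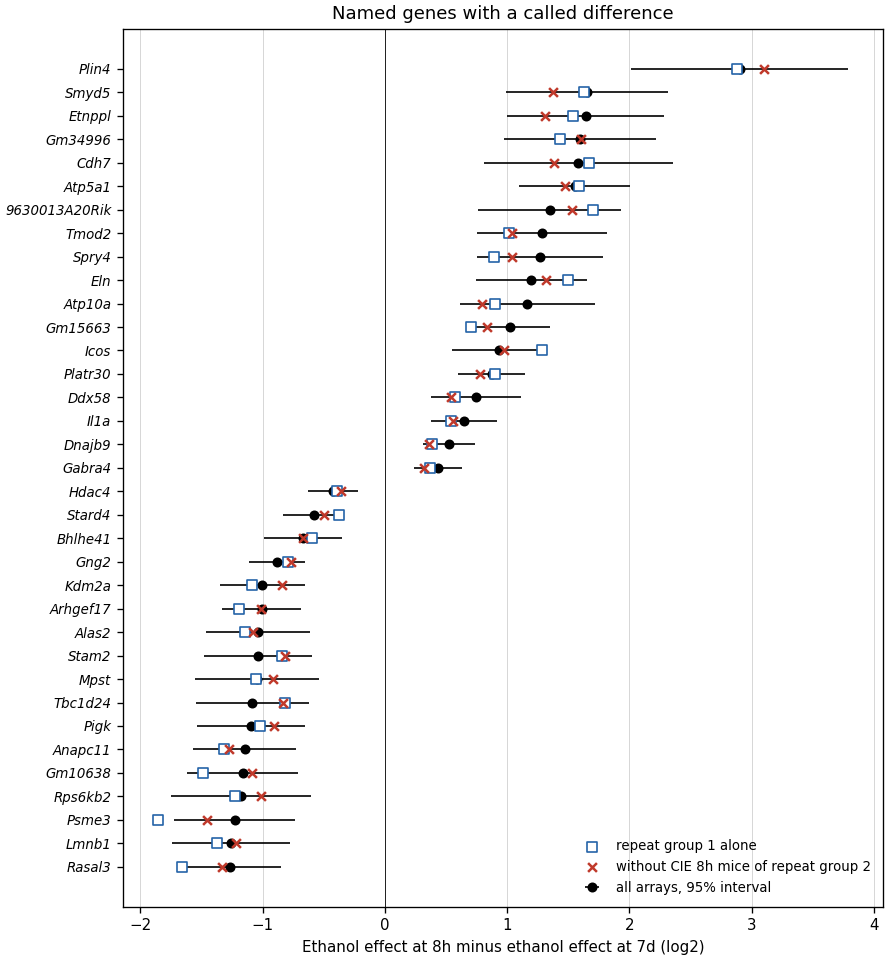
Difference of ethanol effects (horizontal axis, effect at 8h minus effect at 7d, log2) of the 35 named genes that passed (vertical axis); black points and bars are the estimate and 95% interval from all arrays, blue squares the estimate from repeat group 1 alone and red crosses that without CIE 8h mice 15 and 23. All estimates have the sign of the main one, which the shared arrays largely fix, and Plin4 (2.90) lies furthest from 0.

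Of the 1527 calls at 8h 16 (1.05%) passed also at 7d, a share close to the 0.948% of all probesets called at 7d. In 11 (0.720%) the sign was the same, and 7 of these are named by the rule used here. Orc1, which marks origins of DNA replication, had 6.68, 6.66, 6.65, 7.05 and 6.63 in CIE 8h mice, against 5.97, 5.97, 5.81, 6.38, 6.34 and 6.41 in Ctrl 8h mice. At 7d it had 6.61, 6.57, 6.64, 6.68, 6.64 and 6.46 in CIE mice, against 6.12, 5.95, 6.29, 6.15, 6.27 and 6.22 in Ctrl mice. CIE mice lay above all Ctrl mice at both times, and the effects were 0.59 and 0.43 (difference 0.15, 95% interval -0.10 to 0.41). Pif1, a DNA helicase, had 0.71 at 8h and 0.58 at 7d (difference 0.13, interval -0.24 to 0.51). Rreb1, a zinc finger transcription factor, had 0.47 and 0.42, and Dnm2, a dynamin of membrane scission, 0.37 and 0.44. Gins3, of the replication complex, had -0.33 and -0.59, Actr1a, of the dynactin complex, -0.30 and -0.33, and Fam243 -0.30 and -0.33. Mean levels of the 7 lay between 4.86 and 6.64, and 4 of them (Rreb1, Dnm2, Gins3 and Actr1a) were not read from the brightest probeset of the gene. The brightest probesets of 3 of these 4 had opposite signs at the 2 times. That of Rreb1 had 0.80 at 8h and -0.51 at 7d (difference 1.30, adjusted p = 0.0202), that of Actr1a 0.30 and -0.17, that of Gins3 -0.16 and 0.09 and that of Dnm2 0.11 and 0.19. Of the 7, Orc1, Pif1 and Dnm2 passed at both times from repeat group 1 alone, and without CIE 8h mice 15 and 23 Orc1 and Dnm2 did.

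Read by function, stress hormone targets, inflammatory genes and antigen presentation genes had positive median differences and sterol and respiratory chain genes negative ones, with few single genes passing. Of 18193 genes read from their brightest probeset 196 passed above 0 (1.08%) and 124 below 0 (0.682%), with a median difference of 0.02 and 53.7% above 0. Counts of list genes below are to be read beside these shares and are also from the brightest probeset. With any probeset counted more genes passed, such as 3 of the glucocorticoid-responsive genes and 4 of the cholesterol genes.

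Of 30 glucocorticoid-responsive genes, 1 passed (Plin4) and 26 had a difference above 0, with a median of 0.33 (0.32 at 8h and -0.01 at 7d). At an unadjusted p ≤ 0.05 17 of 30 passed (56.7%), against 24.3% of all genes. From repeat group 1 alone the median was 0.25, with 26 above 0, and it was 0.26 without CIE 8h mice 15 and 23. At 8h 7 of the 30 passed as higher and at 7d 0 did. The mean level of the list was between 9.17 and 9.48 in CIE 8h mice and between 8.87 and 9.03 in Ctrl 8h mice, which do not overlap, and at 7d between 8.79 and 8.97 in CIE and between 8.86 and 8.97 in Ctrl mice. Sgk1, a kinase induced by serum and glucocorticoids that the study names in PFC, had 12.42, 12.73, 12.09, 12.83 and 12.86 in CIE 8h mice, against 11.76, 11.86, 11.54, 11.48, 11.93 and 11.81 in Ctrl 8h mice. The 7d levels were 11.78, 11.50, 11.81, 11.85, 11.83 and 11.86 in CIE mice, against 11.69, 11.97, 11.52, 11.88, 11.84 and 12.15 in Ctrl mice. Its groups were apart at 8h and overlapped at 7d, and its difference of 0.93 just missed the threshold (95% interval 0.46 to 1.40, adjusted p = 0.0119).

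Of 29 genes of the unfolded protein response, which raises the folding capacity of the endoplasmic reticulum, 1 passed, Dnajb9, a co-chaperone of that compartment. Its levels were 11.49, 11.52, 11.52, 12.04 and 11.80 in CIE 8h mice, against 11.19, 11.17, 11.18, 11.30, 11.20 and 11.18 in Ctrl 8h mice. At 7d they were 11.14, 11.10, 11.06, 11.09, 11.08 and 11.20 in CIE mice, against 11.24, 11.14, 11.21, 11.29, 11.04 and 11.08 in Ctrl mice. Every CIE 8h mouse lay above all other mice of the 4 groups, with the 2 mice of repeat group 2 the highest. The effects were 0.47 (adjusted p = 2.43e-04) and -0.05 (adjusted p = 0.767) and the difference 0.52 (95% interval 0.31 to 0.74, adjusted p = 0.00258). It was 0.38 from repeat group 1 alone (adjusted p = 0.0199) and the 8h effect was 0.33 and 0.69 in repeat groups 1 and 2. The list as a whole had a median of 0.10, with 19 of 29 above 0.

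Of 31 NF-kB feedback, cytokine and chemokine genes 25 had a difference above 0 (median 0.20, and 0.08 from repeat group 1 alone), and 1 passed. This was Il1a, the cytokine interleukin 1 alpha, with 4.51, 4.31, 4.56, 4.81 and 4.54 in CIE 8h mice, against 4.10, 4.10, 4.12, 3.91, 4.13 and 4.17 in Ctrl 8h mice. The 7d levels were 3.73, 3.80, 4.00, 3.96, 4.06 and 4.10 in CIE mice, against 4.14, 4.31, 3.85, 4.12, 4.26 and 4.11 in Ctrl mice. The groups did not overlap at 8h and did at 7d, at levels near the bottom of the array's range. The effects were 0.46 and -0.19 and the difference 0.65 (adjusted p = 0.00303). Nfkbia, an inhibitor of NF-kB, had 0.31 and -0.02 on its brightest probeset (difference 0.33, adjusted p = 0.142). All 5 of its probesets had a difference above 0, and 1 of them passed.

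Genes of antigen presentation had the largest list medians, with class I effects of 0.69 at 8h and 0.08 at 7d and class II effects of 0.36 and 0.03 (medians). The 12 MHC class I and peptide loading genes had a median difference of 0.55 with 10 above 0, and the 10 MHC class II genes a median of 0.35 with 9 above 0. None passed in either list on the brightest probeset (0 by limma). At an unadjusted p ≤ 0.05, 1 class I gene (8.33%) and 4 class II genes (40%) passed, against 24.3% of all genes. With any probeset counted, 1 gene passed in each list. The class I gene H2-D1 passed with -1.01 on 1 probeset and 0.44 on another, so its calls differ in sign. The class I mean level was between 8.09 and 8.98 in CIE 8h mice and between 7.76 and 8.66 in Ctrl 8h mice, which overlap, and between 7.67 and 8.12 in CIE 7d and between 7.67 and 7.91 in Ctrl 7d mice. Psmb9, an immunoproteasome subunit, had effects of 0.82 and -0.07 (difference 0.89, 95% interval 0.03 to 1.74), and Tap1, a peptide transporter, 0.88 and 0.13. In class II the protease Ctss had 0.41 and -0.10, and the invariant chain Cd74 0.82 and -0.15, with an 8h effect of 0.12 in repeat group 1 and 1.68 in repeat group 2. The list medians from repeat group 1 alone were 0.27 and 0.23.

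Of 37 interferon-stimulated genes 29 had a difference above 0 (median 0.25) and 1 passed. From repeat group 1 alone the median was -0.0012 with 18 above 0 and 0 passed, and without CIE 8h mice 15 and 23 it was 0.17 with 27 above 0. The gene that passed, Ddx58, is a sensor of viral RNA. It had 6.07, 6.12, 6.41, 6.92 and 6.52 in CIE 8h mice, against 6.00, 5.85, 5.90, 5.76, 6.05 and 6.15 in Ctrl 8h mice, and 5.67, 5.87, 5.78, 5.67, 5.53 and 5.70 in CIE 7d mice, against 5.86, 5.84, 6.03, 6.25, 6.00 and 5.98 in Ctrl 7d mice. The groups overlapped at both times, and the difference of 0.75 (adjusted p = 0.00993) held in 4 of 23 runs that left out 1 array.

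Sterol genes leaned the other way. Of 24 genes of cholesterol synthesis and transport 4 had a difference above 0 (median -0.21, with -0.20 at 8h and 0.07 at 7d), 13 passed at an unadjusted p ≤ 0.05 (54.2%), and 1 passed. The median from repeat group 1 alone was -0.16, again with 4 above 0. Stard4, which carries cholesterol between membranes, had 9.53, 9.88, 9.90, 9.56 and 9.57 in CIE 8h mice, against 9.90, 10.03, 9.85, 10.22, 10.24 and 10.06 in Ctrl 8h mice, and 10.30, 10.26, 10.38, 10.23, 10.46 and 10.47 in CIE 7d mice, against 9.81, 10.11, 10.24, 10.21, 10.34 and 10.10 in Ctrl 7d mice. The groups overlapped at both times by 1 or a few mice. The effects were -0.36 (adjusted p = 0.00750) and 0.22 (adjusted p = 0.159), and the difference was -0.58 (adjusted p = 0.00407), or -0.37 from repeat group 1 alone (adjusted p = 0.0988). Of 39 respiratory chain genes of mitochondria 7 had a difference above 0 (median -0.12) and 0 passed (by limma, 10 or 25.6% at an unadjusted p ≤ 0.05, against 24.3% of all genes). Their median was -0.07 from repeat group 1 alone and -0.06 without CIE 8h mice 15 and 23. Uqcrfs1, an iron-sulfur subunit of complex III, had effects of -0.24 and 0.02 (difference -0.26, adjusted p = 0.0160), and Ndufb3, of complex I, -0.10 and 0.13 (difference -0.23).

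**Figure D4:**
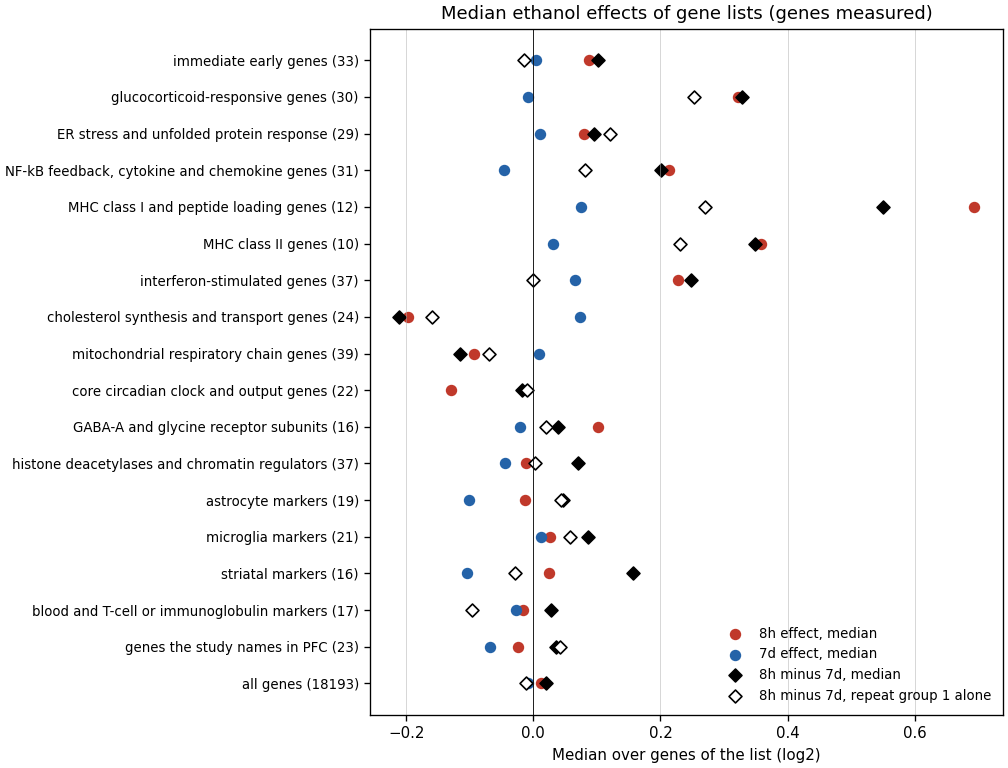
Median ethanol effects (horizontal axis, log2) over the genes of 17 lists and of all genes (vertical axis, number of genes measured in brackets); red points are the 8h effect, blue points the 7d effect, black diamonds the difference and open diamonds the difference from repeat group 1 alone. The 7d medians lie near 0, the MHC class I list has the largest median difference (0.55), and the open diamond of the interferon list lies at -0.0012.

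Transmission and transcription genes showed single calls. Of 16 GABA-A and glycine receptor subunits 9 had a difference above 0 (median 0.04) and Gabra4 passed. It encodes the alpha4 subunit, found in GABA-A receptors outside synapses. Its levels were 11.33, 11.30, 11.25, 11.60 and 11.55 in CIE 8h mice, against 11.05, 11.14, 11.09, 11.11, 11.19 and 11.24 in Ctrl 8h mice, and 11.13, 11.23, 11.11, 11.30, 11.01 and 11.06 in CIE 7d mice, against 11.32, 11.22, 11.37, 11.56, 11.19 and 11.18 in Ctrl 7d mice. The groups did not overlap at 8h and did at 7d. The effects were 0.27 (adjusted p = 0.0125) and -0.17 (adjusted p = 0.172), and the difference was 0.44 (95% interval 0.24 to 0.63, adjusted p = 0.00610), held in 13 of 23 runs that left out 1 array, and 0.37 from repeat group 1 alone (adjusted p = 0.0342).

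Of 37 histone deacetylases and chromatin regulators 21 had a difference above 0 (median 0.07), and Hdac4, a deacetylase that shuttles between nucleus and cytoplasm, passed. It had 8.71, 8.72, 8.82, 8.64 and 8.52 in CIE 8h mice, against 8.86, 8.999, 9.12, 9.01, 8.89 and 8.90 in Ctrl 8h mice, and 9.14, 9.01, 8.99, 9.02, 8.91 and 8.99 in CIE 7d mice, against 8.79, 8.75, 8.91, 8.69, 9.04 and 8.999 in Ctrl 7d mice. CIE mice lay below all Ctrl mice at 8h and overlapped with them at 7d. The effects were -0.28 and 0.15 and the difference -0.42 (adjusted p = 0.00968), held in 5 of 23 runs that left out 1 array. Of 22 clock genes 11 had a difference above 0 (median -0.02) and Bhlhe41, a repressor of clock transcription, passed with -0.67 (8h effect -0.37, 7d effect 0.30, adjusted p = 0.00785, held in 7 of 23 runs that left out 1 array).

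Of 33 immediate early genes, which neurons induce within minutes to hours of activity, 20 had a difference above 0 (median 0.10, and -0.01 from repeat group 1 alone). By limma 0 passed, and 7 (21.2%) had an unadjusted p ≤ 0.05, against 24.3% of all genes. Nptx2, a synaptic pentraxin, had effects of 1.03 and -0.25 (difference 1.28, 95% interval 0.61 to 1.96, adjusted p = 0.0153) and Egr3, a zinc finger factor, 0.80 and 0.00 (difference 0.80, adjusted p = 0.0192). The 8h effects of Nptx2 were 0.55 and 1.61 in repeat groups 1 and 2, and those of Egr3 0.40 and 1.30. Of the 23 genes that the study names in PFC, which it chose on these mice, 0 passed on the brightest probeset (by limma). At an unadjusted p ≤ 0.05, 8 (34.8%) did, against 24.3% of all genes. The study did not choose them on the difference between 8h and 7d effects. Bdnf, a neurotrophin, had a difference of 0.10 with a 95% interval of -0.43 to 0.64. Bcor, a corepressor, had 0.51 (interval 0.26 to 0.76, adjusted p = 0.0106), Sgk3 0.26, Cebpg 0.22, Il2 -0.07 and Il4 -0.29. Ighm, the heavy chain of immunoglobulin M, had 9.14 ± 0.34 in CIE 8h mice (SD, n = 5) against 10.2 ± 0.44 in Ctrl 8h mice (n = 6), and 10.7 ± 0.43 in CIE 7d against 10.6 ± 0.32 in Ctrl 7d mice (n = 6 each), with a difference of -1.06 (interval -1.76 to -0.36, adjusted p = 0.0508).

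Markers of cell types gave few calls. Of 17 blood, T-cell and immunoglobulin markers 1 passed above 0 and 1 below. The list holds 22 genes, and those without a probeset of 1 gene symbol were not read, so the counts do not cover them. Probesets without a single symbol, such as those with differences of -2.46 and -2.23 above, enter no list count. The mean over the list was low, but Ighm had a mean level of 10.1. Alas2, an enzyme of heme synthesis in red cells, had 5.30, 5.05, 4.79, 5.18 and 5.13 in CIE 8h mice, against 5.82, 6.02, 5.92, 6.00, 6.04 and 5.36 in Ctrl 8h mice, and 5.85, 5.58, 5.76, 6.44, 5.70 and 5.75 in CIE 7d mice, against 5.76, 6.07, 5.44, 5.31, 5.38 and 5.52 in Ctrl 7d mice. The groups were apart at 8h and overlapped at 7d (difference -1.04, adjusted p = 0.00264, and -1.14 from repeat group 1 alone). Icos, a costimulator of T cells, had 0.93 (8h effect 0.42, 7d effect -0.52), with 8h effects of 0.77 and 0.04 in repeat groups 1 and 2. The mean level of this list lay between 5.06 and 5.27 in CIE 8h, 5.13 and 5.25 in Ctrl 8h, 5.14 and 5.34 in CIE 7d and 5.20 and 5.25 in Ctrl 7d mice.

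Of 21 microglia markers 0 passed (by limma, 8 or 38.1% at an unadjusted p ≤ 0.05, against 24.3% of all genes). Fcrls, a surface receptor of microglia, had 7.45, 7.55, 8.04, 7.50 and 7.60 in CIE 8h mice, against 8.19, 8.54, 8.53, 8.34, 9.03 and 8.49 in Ctrl 8h mice, and 8.69 ± 0.18 in CIE 7d against 8.74 ± 0.10 in Ctrl 7d mice (SD, n = 6 each). The 8h groups were apart. Its difference of -0.84 (95% interval -1.27 to -0.42) had an adjusted p = 0.0120, and the purine receptor P2ry12 had -0.52. The list itself had a median of 0.09, with 12 of 21 above 0. Of 19 astrocyte markers 13 had a difference above 0 (median 0.05) and 0 passed (by limma, 4 or 21.1% at an unadjusted p ≤ 0.05). The connexin gene Gjb6 had 0.78 and the brightest probeset of Etnppl 1.01 (adjusted p = 0.0470). Striatum lies next to the dissected region. Of 16 striatal markers 10 had a difference above 0, with a median of 0.16 that was -0.03 from repeat group 1 alone, and 0 passed (by limma, 0 at an unadjusted p ≤ 0.05). Their mean level was between 7.89 and 8.54 in CIE 8h, 7.92 and 8.26 in Ctrl 8h, 8.05 and 9.25 in CIE 7d and 7.96 and 9.11 in Ctrl 7d mice. Gng7 had a difference of 0.62 and Rasd2 of 0.33. What part the striatal content of the 7d tissue has in the results was not tested. The other 13 lists, with 255 genes measured, had medians between -0.05 and 0.07 and 0 genes that passed on the brightest probeset (by limma). Of the 255 genes 50 had an unadjusted p ≤ 0.05, against 24.3% of all genes. Some of the 255 passed on another probeset.

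Genes called on more than 1 probeset are described here, chosen after their values were seen. Their probesets that were not called do not enter, so agreement in sign among the rest is no check on the calls. Of 16 such genes 13 had the same sign on all called probesets. Tm2d2 passed on 3 probesets with differences between 0.48 and 0.55, Rin1, a Ras effector of neurons, on 2 (0.75 and 1.16), Rab2a, of vesicle traffic, on 2 (0.97 and 1.16) and the kinase Braf on 2 (-0.78 and -0.92). The MHC class I gene H2-D1 passed with -1.01 on 1 probeset and 0.44 on another, and Ppp4r3b and Tubb4b were split too. Of the 620 named genes with a call 320 passed on their brightest probeset.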

How the data were processed

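Medial PFC of individual mice was hybridised to Affymetrix whole-genome mouse arrays. The values are on the log2 scale, as the authors deposited them, with 1 per probeset and array. RMA is named in the submitters' processing notes. According to the methods, background correction and quantile normalization were run within hybridization batch and across arrays, and ComBat then adjusted PFC arrays with repeat group as the batch factor. Because repeat group 2 holds 8h mice alone, this step can shift 8h levels. Their versions: not given in the sources used here.

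Values were used as deposited, without a filter. A model with a mean for each of 8 groups was fitted to all 47 arrays with limma 3.58.1 in R 4.3.3 (with version 1.17.8 of data.table), variances were moderated, and p-values were adjusted by Benjamini-Hochberg across all 45037 probesets. All p-values are 2-sided. Every adjusted p is from such a fit, and the procedure was tested on simulated data. The simulated noise was independent between probesets, without a shift between repeat groups or an outlying array, so that test cannot check for these. Identical arrays were looked for and 0 pairs found, and 0 value columns were left out. Mouse numbers are not shared between groups, so no pairing applies. The labels give separate mice as replicates.

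Of the probesets, 34945 had 1 gene symbol, 932 had more and 9160 had none in the annotation, and 34741 symbols were looked up through Entrez identifiers (RefSeq, GRCm38.p6). List genes were read from the probeset of highest mean level, with cross-hybridizing probesets last. The 30 lists hold genes of pathways and cell types, some of which are not used here. Named genes followed a rule: the 10 largest differences in each direction, up to 5 per class, up to 4 passing members of each described list or else 2, up to 10 passing at both times in the same direction, and 8 genes the study names. Probesets with the suffixes _x_at and _s_at were left out. The genes and lists were chosen with earlier results of these data known.

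Other settings were repeat group 1 alone, the 23 arrays alone, repeat group as a term, array weights, an intensity trend with robust variances, brighter probesets alone, arrays centred on their median, a threshold of 0.05, the brightest probeset of each gene, leaving out each array in turn and, added after seeing the data, leaving out CIE 8h mice 15 and 23 together, and the contrasts between times and the probesets called at both times under the settings named beside them. In the first setting the ComBat adjustment is still in the values.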

Additional observations from a re-analysis of the deposited data

Results flagged for a closer look

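The ethanol effect differed between 8h and 7d by the test of the difference itself (limma, adjusted p of at most 0.01) for 35 of the named probesets, in the order of size. The effect at 8h minus that at 7d was above 0 for Plin4 (2.90), Smyd5 (1.66), Etnppl (1.64), Gm34996 (1.60), Cdh7 (1.58), Atp5a1 (1.55), 9630013A20Rik (1.35), Tmod2 (1.28), Spry4 (1.27), Eln (1.20), Atp10a (1.17), Gm15663 (1.02), Icos (0.93), Platr30 (0.87), Ddx58 (0.75), Il1a (0.65), Dnajb9 (0.52) and Gabra4 (0.44). It was below 0 for Rasal3 (-1.26), Lmnb1 (-1.26), Psme3 (-1.23), Rps6kb2 (-1.18), Gm10638 (-1.16), Anapc11 (-1.14), Pigk (-1.10), Tbc1d24 (-1.08), Mpst (-1.04), Stam2 (-1.04), Alas2 (-1.04), Arhgef17 (-1.01), Kdm2a (-1.003), Gng2 (-0.88), Bhlhe41 (-0.67), Stard4 (-0.58) and Hdac4 (-0.42).

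In 27 of 260 groups of 5 or 6 mice, the highest or lowest mouse of a named gene stood apart from the rest of its group by Dixon's criterion, which chance meets in about 1 of 20 groups. All values are log2 levels. Among CIE 8h mice the values that stood apart as high were Smyd5 in mouse 15 (6.93, next 5.79), Anapc11 in mouse 15 (5.24, next 4.87), Fcrls in mouse 69 (8.04, next 7.60), Orc1 in mouse 15 (7.05, next 6.68) and Il4 in mouse 23 (4.53, next 4.10). Among CIE 8h mice the values that stood apart as low were Stam2 in mouse 15 (4.22, next 5.31) and Ndufb3 in mouse 15 (11.77, next 11.91). Among Ctrl 8h mice the values that stood apart as high were Dnajb9 in mouse 32 (11.30, next 11.20), Psmb9 in mouse 66 (8.18, next 7.02) and Bhlhe41 in mouse 32 (6.00, next 5.60). Among Ctrl 8h mice the values that stood apart as low were Plin4 in mouse 42 (5.66, next 6.65), Il1a in mouse 32 (3.91, next 4.10), Alas2 in mouse 50 (5.36, next 5.82), Rreb1 in mouse 42 (4.50, next 4.83) and Ighm in mouse 79 (9.32, next 10.05). Among CIE 7d mice the values that stood apart as high were Spry4 in mouse 13 (6.45, next 5.84), Gjb6 in mouse 27 (10.65, next 9.84), Gng7 in mouse 7 (8.78, next 7.59), Rasd2 in mouse 7 (7.49, next 6.95), Alas2 in mouse 37 (6.44, next 5.85) and Sgk3 in mouse 7 (9.66, next 9.32). Among CIE 7d mice the values that stood apart as low were Lmnb1 in mouse 7 (5.42, next 5.80), P2ry12 in mouse 13 (9.21, next 9.46), Sgk1 in mouse 7 (11.50, next 11.78), Fam243 in mouse 13 (5.45, next 5.59) and Ighm in mouse 7 (9.81, next 10.77). Among Ctrl 7d mice the values that stood apart as high were Smyd5 in mouse 46 (7.15, next 5.99).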

How the results depend on the processing

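The number of arrays limits the precision, and signal over background limits it for the many calls at or under the median level. No paired analysis was possible because no mouse number occurs in more than 1 group. The 810 calls of the difference became 1477 with repeat group as a term, 4933 with array weights, 234 among brighter probesets and 3390 at a threshold of 0.05. Leaving out CIE 8h mice 15 and 23 together, added after seeing the data, gave 527 (303 shared with the 810). For the 8h effect these settings gave 3004, 6772, 856, 5000 and 445, and the 23 arrays alone 774. For the 7d effect array weights gave 2579, brighter probesets 26, the threshold of 0.05 1635, the 2 mice left out 764, repeat group 1 alone 761 and the 23 arrays alone 257. Centring arrays on their median gave 812 for the difference. For the 8h effect the share higher was 67.3%, and it was 51.8% from repeat group 1 alone and 52.0% with array weights. For the 7d effect it was 50.8%, and 61.5% among brighter probesets. Leaving out 1 array in turn gave 393 to 891 calls of the difference, 610 to 1860 at 8h and 200 to 675 at 7d. The count of the difference moved by over 1.5 times without Ctrl 8h mice 66 (395), 75 (393) or 79 (417), Ctrl 7d mouse 46 (465) or CIE 7d mice 27 (458), 37 (539) or 45 (528). That at 8h did so without Ctrl 8h mice 66 (680), 75 (686) or 79 (741) or CIE 8h mice 15 (610) or 23 (933). That at 7d did so without Ctrl 7d mice 46 (233), 70 (242) or 80 (284), CIE 8h mouse 15 (675) or CIE 7d mice 27 (221), 37 (200) or 45 (240). The class that passed at both times with opposite signs held 16 from repeat group 1 alone and 2 without the 2 mice, the class that passed at neither time held 485 from repeat group 1 alone, and the class that passed at 8h alone held 148 without the 2 mice.

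Of the 35 named genes that passed, 16 no longer passed from repeat group 1 alone, 17 without the 2 mice, and 9 in at least 1 run that left out 1 array. Signs turned on the brightest probeset for Smyd5 (-0.19), Atp5a1 (-0.27) and Gins3 (-0.25). They turned also for genes whose difference lay near 0. These were Rreb1 (-0.079 from repeat group 1 alone, -0.0027 with array weights, -0.016 without Ctrl 8h mouse 42, -8.9e-04 without CIE 8h mouse 15 and -0.020 without CIE 7d mouse 45), Dnm2 (0.090 from repeat group 1 alone, 0.042 with array weights and 0.0064 without CIE 8h mouse 23), Actr1a (-7.2e-05 without Ctrl 7d mouse 28 and -0.013 without CIE 8h mouse 40), Fam243 (-4.5e-04 without CIE 8h mouse 23) and Bdnf (-0.043 with array weights, -0.032 without Ctrl 8h mouse 50, -0.011 without Ctrl 7d mouse 18 and -0.094 without CIE 8h mouse 40). Over all runs that left out 1 array the differences of these genes lay between -0.020 and 0.10 (Rreb1), -0.12 and 0.0064 (Dnm2), -0.013 and 0.080 (Actr1a), -4.5e-04 and 0.085 (Fam243) and -0.094 and 0.21 (Bdnf). Where counts or signs moved, the cause was not tested.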

Other observations

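Clock genes had differences of both signs, which cancel in the median of their list. These genes, picked here after their values were seen, are given as values only. The feedback genes and outputs Tef, Nr1d1 and Cry2 had differences of -0.35 (adjusted p = 0.0101), -0.52 (adjusted p = 0.105) and -0.60 (adjusted p = 0.108). The activators Npas2 and Clock had 0.45 (adjusted p = 0.0307) and 0.37 (adjusted p = 0.0457), and the repressor Cry1 had 0.56 (adjusted p = 0.0427). None of these 6 passed by limma. At 8h the effects were -0.37 for Tef, -0.44 for Nr1d1, -0.39 for Cry2, 0.44 for Npas2, 0.31 for Clock and 0.53 for Cry1, and at 7d they lay between -0.06 (Clock) and 0.21 (Cry2). From repeat group 1 alone the differences kept their signs, with -0.20 for Tef, -0.46 for Nr1d1, -0.37 for Cry2, 0.24 for Npas2, 0.23 for Clock and 0.42 for Cry1. In all, 14 of the 22 clock genes (63.6%) had an unadjusted p ≤ 0.05, against 24.3% of all genes. The clock hour of each harvest was not used here, and its part in these values was not tested.

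Among the sterol genes, Sqle and Hmgcs1 were lower at 8h too, with differences that did not pass. The 8h median of the cholesterol list was -0.20 with all arrays and -0.10 from repeat group 1 alone. Sqle, squalene epoxidase, had an 8h effect of -0.37 and a 7d effect of 0.09 (difference -0.46, adjusted p = 0.0174), and Hmgcs1, which makes HMG-CoA, had -0.24 and 0.05 (difference -0.29, adjusted p = 0.0255). These too were picked after their values were seen.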
